A study of Homo sapiens with 24 samples.

Results

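The 8 genes described here are GPX1, GPX2, GPX3, GPX4, GPX8, AIFM2, ACSL4 and LPCAT3. They reduce peroxides, regenerate a radical trap or set how much oxidisable lipid a membrane holds. They were found by symbol in a table of 61251 genes, which held all 8. The deposited RNA sequencing comprised 24 libraries made from KYSE450, a human cell line of oesophageal squamous cell carcinoma (ESCC). There were 6 libraries each of chemoresistant DTP, chemoresistant, parental DTP and parental cells, where DTP stands for drug tolerant persister, the cells that outlive a drug exposure. The labels give the chemoresistant cells the title KYSE450DDP without explaining the suffix, list all 4 groups as WT with no treatment in RPMI-1640 with 10% FBS, and name neither a drug nor a dose for the persisters. They do not say whether the chemoresistant line is 1 clone, or whether the 6 libraries of a group were separate cultures. The p-values therefore measure only how these samples spread, and that spread may be technical.

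Glutathione peroxidases turn hydrogen peroxide and organic hydroperoxides into water and alcohols, and typically oxidise glutathione as they do so. GPX1, GPX2, GPX3 and GPX4 are selenoproteins with a selenocysteine in the active site, while GPX7 and GPX8 have a cysteine there and sit in the endoplasmic reticulum. GPX4 reduces peroxides of phospholipids within membranes, and its loss leads to ferroptosis, a cell death by iron-dependent lipid peroxidation. AIFM2, also called FSP1, is a membrane oxidoreductase that regenerates ubiquinol, a radical trap, independently of glutathione. ACSL4 activates long polyunsaturated fatty acids as CoA esters and LPCAT3 places them into phospholipids, which supplies the substrate of lipid peroxidation.

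In GRCh38 coordinates of GENCODE release 29, GPX1 (ENSG00000233276) lies at chr3:49357171-49358600 on the minus strand and GPX2 (ENSG00000176153) at chr14:64939152-64942905 on the minus strand. GPX3 (ENSG00000211445) lies at chr5:151020438-151028993 on the plus strand, GPX4 (ENSG00000167468) at chr19:1103926-1106791 on the plus strand and GPX8 (ENSG00000164294) at chr5:55160118-55167071 on the plus strand. AIFM2 (ENSG00000042286) lies at chr10:70098223-70132934, ACSL4 (ENSG00000068366) at chrX:109624244-109733403 and LPCAT3 (ENSG00000111684) at chr12:6976186-7018510, all 3 on the minus strand. The antioxidant response element, the site that NRF2 binds with a small MAF protein, has the core TGACNNNGC, and this was searched on both strands from 250 bases before to 50 bases after each RefSeq transcription start (GRCh38.p14). All 8 genes had such a window. The windows of GPX2 and AIFM2 held the core, as did those of 16.06% of 27305 genes with a window. Both stretches are shown on the gene's own strand with the match, which reads as the core on the opposite strand, in capitals.
GPX2: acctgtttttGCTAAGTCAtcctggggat
AIFM2: cagcacgagtGCTGAGTCAcgccccgccc
The GPX2 stretch is chr14:64942849-64942877 and its match begins 122 bases before the RefSeq start. The AIFM2 stretch is chr10:70132829-70132857 and its match begins 22 bases before the RefSeq start. GENCODE places a start further upstream for both genes, so that both stretches also fall in the 5′ untranslated part of the first exon of at least 1 transcript, and the GPX2 stretch lies in an intron of CHURC1 on the other strand. A match in letters does not show that a factor was bound.

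Reads recovered from the deposited FPKM values totalled 14947379 to 37989445 per library. By counting error alone, no read in a library allows a level of up to 3 reads, which is 0.0790 to 0.201 CPM (counts scaled to the library total). FPKM are scaled to gene length and to the reads assigned in a library, so levels of different genes can be set side by side. All 7 squamous markers (TP63, KRT5, KRT14, KRT6A, KRT17, DSG3 and SFN) were expressed in every group, with summed levels of 5259 to 6254 FPKM in chemoresistant DTP, 4440 to 5270 FPKM in chemoresistant, 2586 to 3203 FPKM in parental DTP and 4449 to 4955 FPKM in parental libraries. Of these 7, 2 rose and 1 fell in chemoresistant DTP against chemoresistant cells (all tested genes 20.5% and 27.4%), 2 rose and 5 fell in parental DTP against parental cells (45.8% and 19.7%), 4 were higher and 3 lower in chemoresistant than in parental cells (48.2% and 29.4%), and 5 were higher and 2 lower in chemoresistant DTP than in parental DTP cells (29.5% and 32.3%). The 5 nuclear-retained RNAs, MALAT1 and NEAT1 among them, summed to 41.5 to 58.4 FPKM in chemoresistant DTP, 32.2 to 51.6 FPKM in chemoresistant, 51.8 to 61.2 FPKM in parental DTP and 25.2 to 42.0 FPKM in parental libraries. Sums of 6 fibroblast markers were 2.70 to 14.2, 4.37 to 19.2, 1.42 to 5.78 and 2.76 to 7.38 FPKM in chemoresistant DTP, chemoresistant, parental DTP and parental libraries, and COL1A1 had the highest mean of the 6 in each group (5.32, 6.45, 2.31 and 2.37 FPKM). Sums of 6 glandular markers were 0.184 to 3.69, 0.464 to 1.59, 0.189 to 1.99 and 0.169 to 0.394 FPKM in the same order, and those of 6 leukocyte markers 0.0396 to 2.57, 0.0805 to 2.03, 0.0314 to 2.29 and 0 to 0.0501 FPKM. CD3E and TYROBP had no read in any library. The part of these lists in the results was not tested. Fold changes below are on the scale of log2(FPKM + 1), fitted with limma over the 13729 genes that averaged 1 FPKM or more in some group, and adjusted p-values are by the Benjamini-Hochberg method with a threshold of 0.05. The median log2 fold change of all tested genes was 0.14 between parental DTP and parental cells and 0.14 between chemoresistant and parental cells, and it was -0.05 and -0.07 after relative log expression (RLE) scaling. Under RLE scaling the share of calls that were higher was 42.6% in place of 69.9% in the first of these comparisons and 44.4% in place of 62.1% in the second, so RLE values are given beside many of the rises. It was 55.1% in place of 42.8% between chemoresistant DTP and chemoresistant cells, and 56.8% in place of 32.1% for the difference of the persister change. RLE factors over the tested genes only were added after seeing the data. With them the median was 0.0008 between parental DTP and parental cells and 0.0014 between chemoresistant and parental cells. In each of these comparisons 50.4% of calls were then higher. In these bulk samples, fewer cells expressing a gene and less RNA per cell cannot be told apart.

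All 8 genes passed the filter on low values. Between chemoresistant DTP and chemoresistant cells 5 of the 8 passed the test, where 48% of all tested genes did: GPX3, GPX8 and AIFM2 were higher (background 20.5%), and GPX2 and LPCAT3 were lower (27.4%). Between parental DTP and parental cells 5 of 8 passed, against 65.5% of all genes: GPX2, GPX3, GPX8 and ACSL4 were higher (45.8%) and LPCAT3 was lower (19.7%). Between chemoresistant and parental cells 7 of 8 passed, against 77.5% of all genes, with GPX1, GPX2, GPX3, GPX4, GPX8 and LPCAT3 higher (48.2%) and ACSL4 lower (29.4%). Between chemoresistant DTP and parental DTP cells 6 of 8 passed, against 61.9% of all genes, with GPX1, GPX2, GPX3, GPX4 and AIFM2 higher (29.5%) and ACSL4 lower (32.3%). With 8 genes, the counts and shares are given as a description and nothing is read from them about the set. The comparisons share groups of libraries and are not independent of each other.

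**Figure D1:**
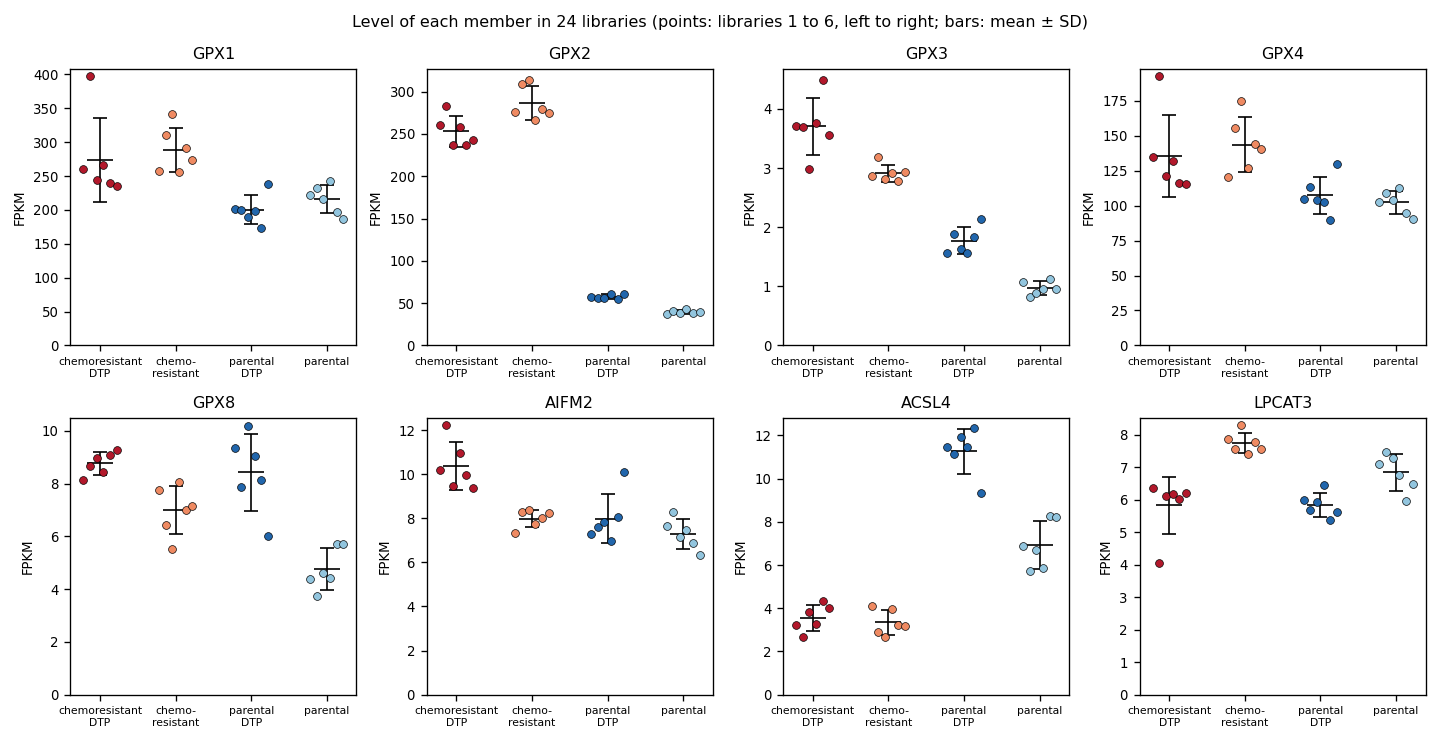
Levels of the 8 genes in FPKM (vertical axes, each starting at 0) in the 6 libraries of each group, with 1 point a library and bars for the mean ± SD. GPX2 lies between 237 and 313 FPKM in all chemoresistant and chemoresistant DTP libraries and between 37.7 and 61.1 FPKM in all parental and parental DTP libraries, while ACSL4 lies at 4.32 FPKM or less in the 12 libraries of the chemoresistant line and at 5.72 FPKM or more in the 12 of the parental line.

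GPX2, the gastrointestinal glutathione peroxidase of epithelia, separated the lines more than any other of the 8 genes. It had 237 to 283 FPKM in chemoresistant DTP libraries (median 251) and 266 to 313 FPKM in chemoresistant libraries (median 278). It had 54.8 to 61.1 FPKM in parental DTP libraries (median 56.6) and 37.7 to 43.3 FPKM in parental libraries (median 39.1). Every chemoresistant library was above every parental one, and every parental DTP library above every parental one, whereas chemoresistant DTP and chemoresistant libraries overlapped. The log2 fold change between chemoresistant and parental cells was 2.82 (SE 0.05, limma adjusted p 1.36e-23), a 7.06-fold difference on the scale used. Between chemoresistant DTP and parental DTP cells it was 2.11 (SE 0.05, adjusted p 7.77e-21). GPX2 rose by 0.53 in parental DTP over parental cells (SE 0.05, limma adjusted p 2.96e-09; 0.27 under RLE scaling). In chemoresistant DTP against chemoresistant cells it fell by 0.18 (limma adjusted p 0.00531), but the adjusted p was 0.203 under RLE scaling and 0.0942 after GC correction.

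GPX1, the cytosolic and mitochondrial enzyme found in most cells, was the most abundant of the 8 genes in parental cells and did not pass the test between persisters and their own line. It had 235 to 397 FPKM in chemoresistant DTP libraries (median 252) and 256 to 341 FPKM in chemoresistant libraries (median 283). It had 174 to 238 FPKM in parental DTP libraries (median 199) and 186 to 242 FPKM in parental libraries (median 219). Persister libraries overlapped those of their own line in both lines. The log2 fold change was -0.09 in chemoresistant DTP against chemoresistant cells (SE 0.11, limma adjusted p 0.493) and -0.11 in parental DTP against parental cells (SE 0.11, limma adjusted p 0.370). Chemoresistant DTP library 2, at 397 FPKM, stood apart from the other 5, the next of which had 266 FPKM, and without it the first value was -0.21 (limma adjusted p 0.0363). Under RLE scaling the second was -0.37 (limma adjusted p 0.0174). GPX1 was higher in every chemoresistant than in any parental library, by 0.41 (SE 0.11, limma adjusted p 0.00112), a difference that was 0.13 under RLE scaling (adjusted p 0.373) and 0.14 after GC correction (adjusted p 0.122). Between chemoresistant DTP and parental DTP cells it rose by 0.43 (SE 0.11, limma adjusted p 0.00113), and this passed under every alternative run, at 0.32 to 0.48. GENCODE lists GPX1 as a polymorphic pseudogene, and its near-identical copy GPX1P1 had means of 20.2, 21.5, 16.7 and 19.4 FPKM in chemoresistant DTP, chemoresistant, parental DTP and parental cells, so the split of reads between them is uncertain.

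GPX3, the secreted form that is abundant in plasma, was low but rose in each of the 4 comparisons between 2 groups. It had 2.99 to 4.49 FPKM in chemoresistant DTP libraries (median 3.71) and 2.77 to 3.18 FPKM in chemoresistant libraries (median 2.89). It had 1.57 to 2.14 FPKM in parental DTP libraries (median 1.73) and 0.816 to 1.13 FPKM in parental libraries (median 0.953), from 43 to 103 reads in the last group. Only the chemoresistant DTP and chemoresistant libraries overlapped, through chemoresistant DTP library 3. The log2 fold changes were 0.26 in chemoresistant DTP over chemoresistant cells (SE 0.06, limma adjusted p 0.00126) and 0.49 in parental DTP over parental cells (SE 0.06, limma adjusted p 2.29e-07; 0.35 under RLE scaling). GPX3 passed the filter on low values through the other 3 groups, as its parental mean was 0.968 FPKM. Chemoresistant exceeded parental cells by 0.99 (SE 0.06, limma adjusted p 3.35e-13) and chemoresistant DTP exceeded parental DTP cells by 0.76 (SE 0.06, limma adjusted p 1.36e-10). At this level the added 1 understates the change: limma-voom on the recovered reads gave 0.40, 0.57, 1.29 and 1.12 for the same 4 comparisons.

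GPX4, which reduces phospholipid hydroperoxides, did not pass the test between persisters and their own line in either line. It had 116 to 193 FPKM in chemoresistant DTP libraries (median 126) and 120.4 to 175 FPKM in chemoresistant libraries (median 142). It had 90.0 to 130.0 FPKM in parental DTP libraries (median 104) and 90.5 to 113 FPKM in parental libraries (median 103). Both persister groups overlapped the group they came from. Its log2 fold change was -0.10 in chemoresistant DTP against chemoresistant cells (SE 0.11, limma adjusted p 0.480) and 0.06 in parental DTP against parental cells (SE 0.11, limma adjusted p 0.618). Without chemoresistant DTP library 2 the first was -0.20 (limma adjusted p 0.0573), and without parental DTP library 6 the second was 0.0078. Every chemoresistant library was above every parental one, by 0.48 on the log2 scale (SE 0.11, limma adjusted p 0.000335), which was 0.20 under RLE scaling (adjusted p 0.182) and 0.22 after GC correction (adjusted p 0.0218). Between chemoresistant DTP and parental DTP cells, which overlapped, GPX4 was higher by 0.32 (SE 0.11, limma adjusted p 0.0143). Without chemoresistant DTP library 2, which had 193 FPKM, it was 0.21 (limma adjusted p 0.0430).

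GPX8, a peroxidase of the endoplasmic reticulum membrane, rose in the persisters of both lines. It had 8.14 to 9.26 FPKM in chemoresistant DTP libraries (median 8.83) and 5.54 to 8.05 FPKM in chemoresistant libraries (median 7.08). It had 6.02 to 10.2 FPKM in parental DTP libraries (median 8.58) and 3.75 to 5.73 FPKM in parental libraries (median 4.52). In both lines every persister library was above every library of the line it came from. GPX8 changed by 0.30 in chemoresistant DTP over chemoresistant cells (SE 0.10, limma adjusted p 0.0145) and 0.71 in parental DTP over parental cells (SE 0.10, limma adjusted p 9.89e-07), and it was 0.35 and 0.48 under RLE scaling. Chemoresistant cells exceeded parental cells by 0.47 (SE 0.10, limma adjusted p 0.000122; 0.23 under RLE scaling), with overlapping libraries. The 2 persister groups had means of 8.77 ± 0.425 FPKM in chemoresistant DTP cells and 8.42 ± 1.44 FPKM in parental DTP cells (SD, n = 6 each), and their difference of 0.07 did not pass (limma adjusted p 0.572).

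GPX7, the other endoplasmic reticulum member of the family, was counted in a list beside the 8 genes and was nearly absent from the chemoresistant line. It had 1 to 7 reads in chemoresistant DTP libraries and 0 to 6 reads in chemoresistant libraries, against 54 to 166 reads in parental DTP libraries and 48 to 89 reads in parental libraries. Mean levels were 0.0924, 0.0702, 2.36 and 1.61 FPKM in that order of groups. GPX7 passed the filter on low values only through the parental and parental DTP groups, where it is high, so its difference between the lines is given as a size and not as a test. The log2 fold change was -1.29 between chemoresistant and parental cells and -1.62 between chemoresistant DTP and parental DTP cells. On recovered reads, where no 1 is added to the FPKM, these were -4.87 (SE 0.39) and -4.75 (SE 0.34). GPX7 also rose by 0.36 in parental DTP over parental cells (limma adjusted p 4.12e-06; 0.19 under RLE scaling), which on recovered reads was 0.30 (adjusted p 0.0747). GPX5 had 1 read in 1 parental DTP library and GPX6 had none in any library.

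AIFM2 rose in the persisters of the chemoresistant line. It had 9.38 to 12.3 FPKM in chemoresistant DTP libraries (median 10.1) and 7.32 to 8.37 FPKM in chemoresistant libraries (median 8.11). It had 6.99 to 10.1 FPKM in parental DTP libraries (median 7.72) and 6.33 to 8.29 FPKM in parental libraries (median 7.31). All chemoresistant DTP libraries were above all chemoresistant ones, while parental DTP and parental libraries overlapped. The log2 fold change was 0.33 in chemoresistant DTP over chemoresistant cells (SE 0.07, limma adjusted p 0.000405) and 0.34 in chemoresistant DTP over parental DTP cells (SE 0.07, limma adjusted p 0.000191). In parental DTP against parental cells it was 0.11 (SE 0.07, limma adjusted p 0.179; -0.12 under RLE scaling), and 0.047 without parental DTP library 6, the highest of its group at 10.1 FPKM. In chemoresistant against parental cells it was 0.12 (SE 0.07, limma adjusted p 0.129; -0.13 under RLE scaling). Among the 4 groups, the means of 10.4 ± 1.08 FPKM in chemoresistant DTP cells stood above 7.99 ± 0.396, 7.98 ± 1.11 and 7.29 ± 0.673 FPKM in chemoresistant, parental DTP and parental cells (SD, n = 6 each).

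ACSL4, which activates arachidonic and other polyunsaturated acids, was lower in the chemoresistant line and rose in parental persisters. It had 2.66 to 4.32 FPKM in chemoresistant DTP libraries (median 3.54) and 2.68 to 4.09 FPKM in chemoresistant libraries (median 3.22). It had 9.32 to 12.3 FPKM in parental DTP libraries (median 11.5) and 5.72 to 8.29 FPKM in parental libraries (median 6.79). All chemoresistant libraries were below all parental ones, all chemoresistant DTP libraries below all parental DTP ones, and all parental DTP libraries above all parental ones. The log2 fold change was -0.87 in chemoresistant against parental cells (SE 0.10, limma adjusted p 2.53e-08) and -1.44 in chemoresistant DTP against parental DTP cells (SE 0.10, limma adjusted p 6.68e-12). ACSL4 rose by 0.63 in parental DTP over parental cells (SE 0.10, limma adjusted p 5.68e-06; 0.40 under RLE scaling). In chemoresistant DTP against chemoresistant cells the value was 0.07 (SE 0.10, limma adjusted p 0.613). The length of ACSL4 implied by its FPKM was 9971 bases, against 6415 exonic bases in GENCODE, so its level relative to other genes depends on the gene model, while the ratio of its FPKM between groups does not.

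LPCAT3 was the member that fell in the persisters of both lines. It had 4.04 to 6.37 FPKM in chemoresistant DTP libraries (median 6.15) and 7.42 to 8.30 FPKM in chemoresistant libraries (median 7.67). It had 5.36 to 6.44 FPKM in parental DTP libraries (median 5.80) and 5.95 to 7.45 FPKM in parental libraries (median 6.93). All chemoresistant DTP libraries were below all chemoresistant ones, and parental DTP and parental libraries overlapped. LPCAT3 fell by 0.37 in chemoresistant DTP against chemoresistant cells (SE 0.07, limma adjusted p 0.000156), and by 0.28 without chemoresistant DTP library 2, the lowest at 4.04 FPKM (adjusted p 1.86e-05). In parental DTP against parental cells it fell by 0.20 (SE 0.07, limma adjusted p 0.0188; -0.43 under RLE scaling). This fall was called in 23 of 24 alternatives, and the limma adjusted p was 0.0900 without parental DTP libraries 5 and 6. Between chemoresistant and parental cells the log2 fold change of 0.16 was close to the threshold (SE 0.07, limma adjusted p 0.0451) and was -0.09 under RLE scaling and -0.05 after GC correction. LPCAT3 shares 3100 exonic bases with EMG1, a ribosome biogenesis gene on the other strand, and the strandedness of the libraries is not given in the sources used here, so reads of the pair cannot be told apart in that stretch. EMG1 had 18.7 ± 2.19 FPKM in chemoresistant DTP cells and 12.1 ± 0.345 FPKM in chemoresistant cells (SD, n = 6 each), a rise of 0.58 (limma adjusted p 8.63e-07), opposite to LPCAT3. In parental DTP against parental cells EMG1 had -0.14 (limma adjusted p 0.107), the direction of LPCAT3, and in chemoresistant against parental cells -0.21 (limma adjusted p 0.0161).

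The persister change differed between the lines for 4 of the 8 genes, where 63.8% of all tested genes passed this test of the difference. All 4 had a more positive change in the parental line, the direction of 43.4% of all tested genes: GPX2 by -0.71 (SE 0.07, limma adjusted p 7.58e-09), ACSL4 by -0.57 (SE 0.14, adjusted p 0.00115), GPX8 by -0.41 (SE 0.14, adjusted p 0.0129) and GPX3 by -0.23 (SE 0.09, adjusted p 0.0241), where each value is the chemoresistant minus the parental persister change. The median of all genes was -0.17, and 0.08 under RLE scaling. The GPX2 difference was -0.39 under RLE scaling (limma adjusted p 0.00251) and passed under every alternative run. The ACSL4 difference was -0.29 under RLE scaling (limma adjusted p 0.0299) and missed the threshold with limma-voom on recovered reads (-0.29, adjusted p 0.0576). Under RLE scaling the GPX8 difference was -0.13 (limma adjusted p 0.358) and the GPX3 difference -0.05 (adjusted p 0.668). AIFM2 pointed the other way, at 0.23 (SE 0.10, limma adjusted p 0.0539), and did not pass on the deposited scaling. It passed under RLE scaling (0.51, limma adjusted p 0.000998), upper-quartile scaling (0.27, adjusted p 0.0374) and GC correction (0.42, adjusted p 0.000223). With limma-voom on recovered reads it was 0.57 (adjusted p 0.000579). Over the 35 alternatives, 24 of which left out 1 library, AIFM2 ranged over 0.16 to 0.57. The adjusted p ran from 0.000223 to 0.105, and AIFM2 passed in 12 of 35.

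**Figure D2:**
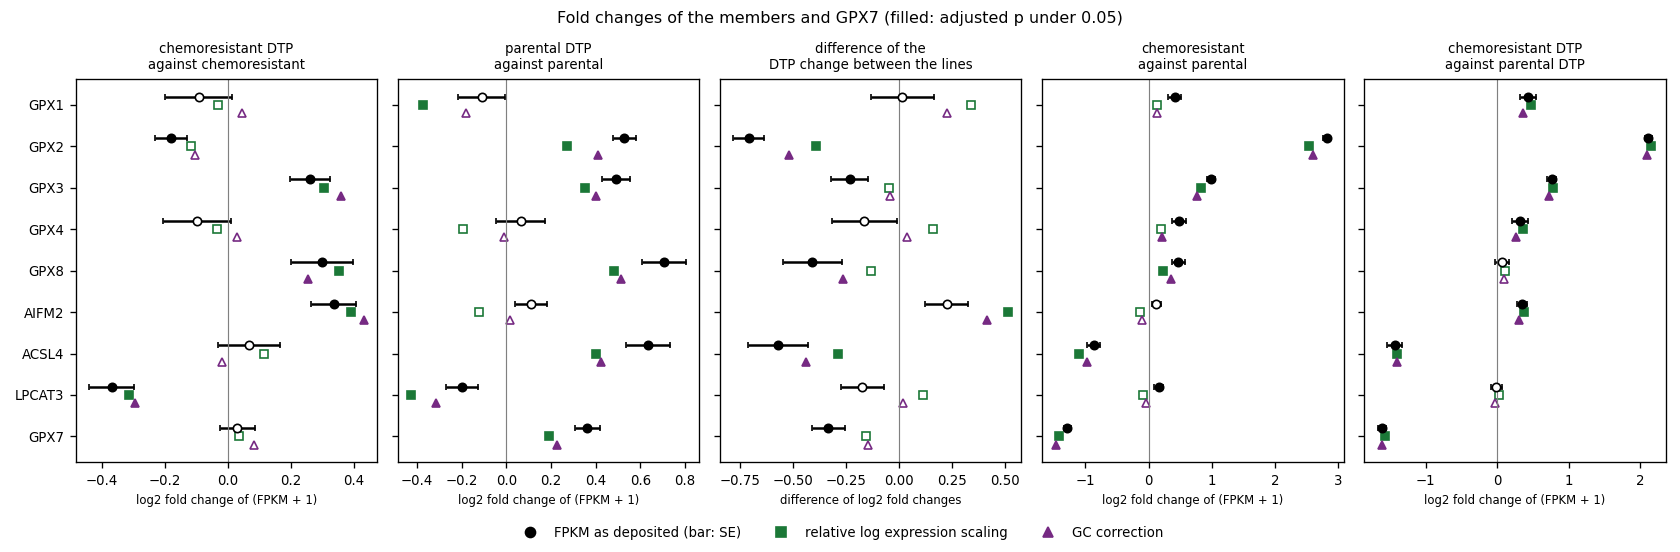
Log2 fold changes of the 8 genes and GPX7 (horizontal axes) in the 4 comparisons and the difference of the persister change, from deposited FPKM (circles with SE), after RLE scaling (squares) and after GC correction (triangles), filled where the adjusted p is under 0.05. GPX2 and ACSL4 keep their sign and call between the lines under all 3, while the GPX1 value between chemoresistant and parental cells is 0.41, 0.13 and 0.14. GPX7 passed the filter on low values only through the parental and parental DTP groups, so its filled points between the lines are not read as a test.

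Within groups, several of the 8 genes moved together with a trend of the libraries. Deviations of genes from their group mean followed GC content in each library, with Spearman rho of -0.640 to 0.655, positive in 11 libraries and negative in 13. GPX4, whose longest transcript has 62.5% GC, was above its group mean in 10 of the 11 positive and 1 of the 13 negative libraries, and GPX1 (64.2% GC) in 9 and 2. GPX2 (53.1% GC) was above it in 8 and 2, ACSL4 (37.4% GC) in 1 and 11, and GPX8 (40.8% GC) in 0 and 12. Chemoresistant DTP library 2, where GPX1 and GPX4 were highest and LPCAT3 lowest, also had the most negative relation of deviations to gene length, with rho -0.408 against -0.237 to 0.312 elsewhere. Between the groups, the GC-corrected values given above for GPX1 and GPX4 are about as low as those under RLE scaling. Between chemoresistant and parental cells, GPX2 had 2.61 after GC correction against 2.82 before it, and ACSL4 had -0.97 against -0.87.

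**Figure D3:**
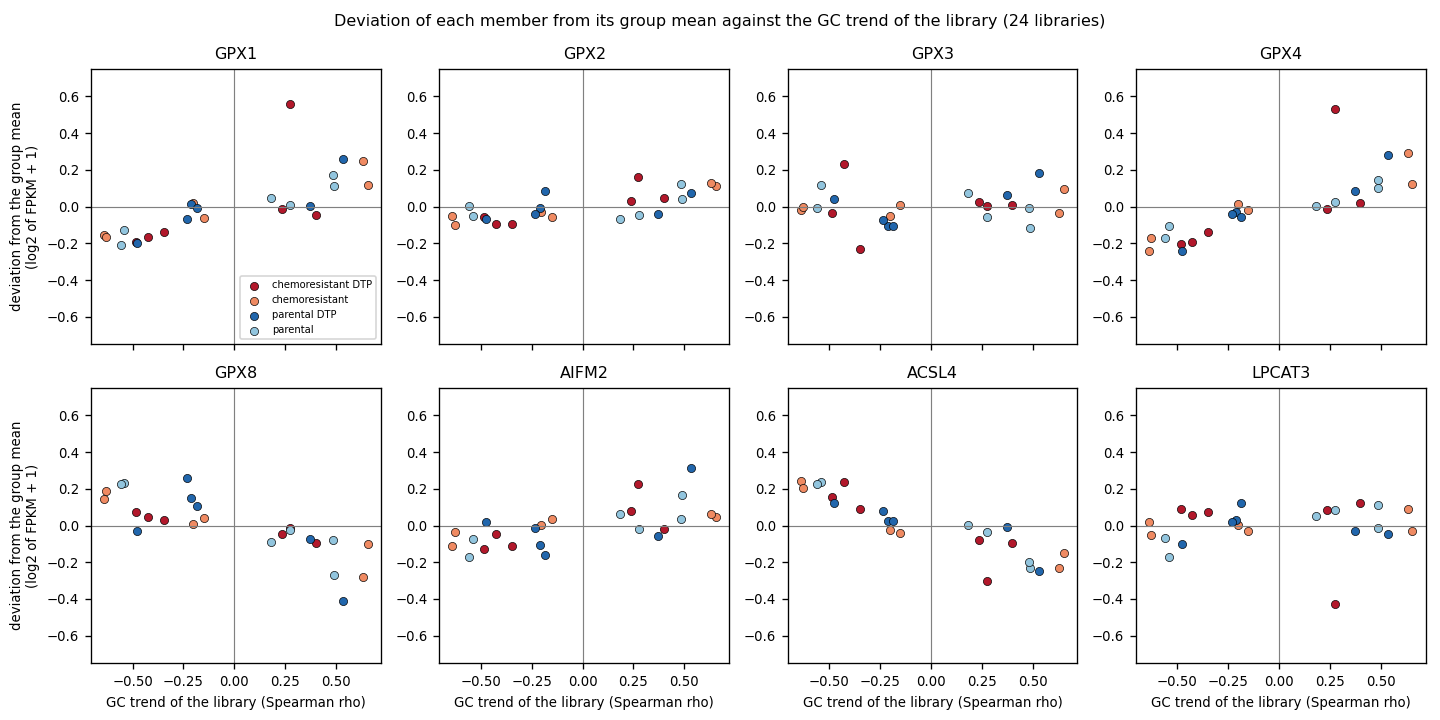
Deviation of each gene from its group mean on the log2(FPKM + 1) scale (vertical axes) against the GC trend of the library (Spearman rho, horizontal axes), with 1 point for each of 24 libraries, coloured by group. GPX1 and GPX4 run upwards, GPX8 and ACSL4 run downwards (0 and 1 of 11 libraries with positive rho above the group mean), and GPX3 shows 7 of 11 above.

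GPX1 to GPX4 need selenocysteine, which is made on its own tRNA and inserted at UGA codons. Shares of all tested genes given here and for the lists below are under the deposited scaling. Under RLE scaling, 3748 of the 13729 tested genes rose and 3060 fell in chemoresistant DTP against chemoresistant cells. In parental DTP against parental cells these were 3837 and 5170. In chemoresistant against parental cells 4762 were higher and 5961 lower. Of 9 tested genes of selenocysteine synthesis and insertion, 5 rose and 0 fell in chemoresistant DTP over chemoresistant cells (all tested genes 20.5% and 27.4%; 8 and 0 under RLE scaling), with a median of 0.13 against -0.02 for all genes. In parental DTP over parental cells 7 rose and 2 fell (45.8% and 19.7%; 5 and 2 under RLE scaling), with a median of 0.36 against 0.14. Between chemoresistant and parental cells 5 were higher and 3 lower (48.2% and 29.4%; 4 and 4 under RLE scaling), with a median of 0.40 against 0.14. SARS1, the cytosolic seryl-tRNA synthetase that charges the selenocysteine tRNA with serine, had 110.1 ± 10.6 FPKM in chemoresistant DTP cells and 69.6 ± 0.543 FPKM in chemoresistant cells, and 75.3 ± 3.84 FPKM in parental DTP cells and 33.4 ± 0.948 FPKM in parental cells (SD, n = 6 each). Its log2 fold changes were 0.65 (limma adjusted p 6.09e-11) and 1.15 (limma adjusted p 4.98e-16). As a seryl-tRNA synthetase SARS1 also serves the serine tRNAs, so its values do not describe selenocysteine alone. SEPHS2, which makes the selenium donor, rose by 0.22 (limma adjusted p 0.000113) and by 0.79 (limma adjusted p 3.61e-14) in the same 2 comparisons. SEPSECS, which forms selenocysteine on the tRNA, rose by 0.77 in parental DTP over parental cells (limma adjusted p 7.97e-10; 0.64 under RLE scaling) and had 0.13 in the chemoresistant line (adjusted p 0.130). With a parental mean of 0.781 FPKM, SEPSECS passed the filter on low values only through the other groups.

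Of 15 other selenoproteins tested, SEPHS2 again among them, 6 rose and 2 fell in chemoresistant DTP over chemoresistant cells (all tested genes 20.5% and 27.4%; 7 and 2 under RLE scaling), with a median of 0.15. In parental DTP over parental cells 8 rose and 2 fell (45.8% and 19.7%; 3 and 4 under RLE scaling), with a median of 0.19. Between chemoresistant and parental cells 9 were higher and 3 lower (48.2% and 29.4%; 8 and 5 under RLE scaling), with a median of 0.43. TXNRD1, the cytosolic thioredoxin reductase, rose by 1.16 in chemoresistant DTP over chemoresistant cells, to 134 ± 9.48 FPKM against 59.6 ± 3.09 FPKM (SD, n = 6 each, limma adjusted p 6.48e-14). In parental DTP over parental cells it rose by 0.72 (limma adjusted p 1.58e-10; 0.46 under RLE scaling). SELENOH, a nuclear selenoprotein, differed between the lines, by 1.46 in chemoresistant over parental cells (limma adjusted p 1.71e-10) and by 1.70 in chemoresistant DTP over parental DTP cells (limma adjusted p 2.73e-11). SELENOM, of the endoplasmic reticulum, fell by 0.61 in chemoresistant DTP against chemoresistant cells (limma adjusted p 7.20e-08), and was higher by 1.36 in chemoresistant than in parental cells (limma adjusted p 4.32e-15).

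Genes of the radical-trapping cofactors, which act beside AIFM2, moved in both directions. The list also held DHCR7, which uses up a radical trap, so its counts and medians do not describe radical trapping alone. Of 20 tested, 7 rose and 4 fell in chemoresistant DTP over chemoresistant cells (all tested genes 20.5% and 27.4%; 10 and 2 under RLE scaling), with a median of 0.07. In parental DTP over parental cells 8 rose and 7 fell (45.8% and 19.7%; 4 and 11 under RLE scaling), with a median of 0.02. In chemoresistant against parental cells 6 were higher and 8 lower (48.2% and 29.4%), with a median of -0.0043. Under RLE scaling 4 were higher and 13 lower, where 4762 and 5961 of all tested genes were. NQO1, a quinone reductase, had 166 ± 15.7 FPKM in chemoresistant DTP cells and 122 ± 3.59 FPKM in chemoresistant cells, and 57.7 ± 6.85 FPKM in parental DTP cells and 51.0 ± 2.60 FPKM in parental cells (SD, n = 6 each). It exceeded parental cells by 1.24 in chemoresistant cells (limma adjusted p 7.35e-15) and rose by 0.44 in chemoresistant DTP over chemoresistant cells (limma adjusted p 4.67e-06). DHCR7, which turns 7-dehydrocholesterol, itself a radical trap, into cholesterol, had a log2 fold change of -1.48 in chemoresistant against parental cells (limma adjusted p 1.76e-17) and fell by 0.87 in parental DTP against parental cells (limma adjusted p 2.18e-12). COQ5, a methyltransferase of ubiquinone synthesis, rose by 0.86 in parental DTP over parental cells (limma adjusted p 4.17e-13) and had -0.08 in the chemoresistant line (adjusted p 0.185).

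The list of polyunsaturated phospholipid synthesis and oxidation, without ACSL4 and LPCAT3, also held genes of other chains, such as SCD and LPCAT1. Its counts and medians therefore do not describe polyunsaturated lipid alone. Of its 21 tested genes, 1 rose and 6 fell in chemoresistant DTP against chemoresistant cells (all tested genes 20.5% and 27.4%). Under RLE scaling these were 3 and 5. The median was -0.09 against -0.02 for all genes. In parental DTP against parental cells 7 rose and 9 fell (45.8% and 19.7%; 5 and 13 under RLE scaling), with a median of -0.07 against 0.14. SCD, which makes monounsaturated acids, had 65.2 ± 11.6 FPKM in chemoresistant DTP cells and 136 ± 4.45 FPKM in chemoresistant cells (SD, n = 6 each), a log2 fold change of -1.07 (limma adjusted p 5.62e-10). It fell by 0.36 in parental DTP against parental cells (limma adjusted p 0.000994; -0.62 under RLE scaling). LPCAT1, an acyltransferase that prefers saturated chains, had a log2 fold change of -1.32 in chemoresistant against parental cells (limma adjusted p 5.41e-19). ALOX15B, an arachidonate lipoxygenase, had means of 0.926, 1.07, 0.0434 and 0.0137 FPKM in chemoresistant DTP, chemoresistant, parental DTP and parental cells, and passed the filter on low values only through chemoresistant cells. Of 9 tested peroxiredoxins, catalase and superoxide dismutases, 3 rose and 2 fell in the persisters of either line. Under RLE scaling these were 4 and 1 in the chemoresistant line (all tested genes, deposited scaling, 20.5% and 27.4%) and 2 and 4 in the parental line (45.8% and 19.7%). In chemoresistant against parental cells 7 were higher and 1 lower (48.2% and 29.4%; 3 and 2 under RLE scaling). SOD2, the mitochondrial superoxide dismutase, fell by 0.69 in chemoresistant DTP against chemoresistant cells (limma adjusted p 2.37e-11) and rose by 0.42 in parental DTP over parental cells (limma adjusted p 4.78e-08; 0.18 under RLE scaling). PRDX1, an abundant peroxiredoxin, rose by 0.45 in chemoresistant DTP over chemoresistant cells (limma adjusted p 7.22e-06), and CAT, catalase, rose by 0.71 in parental DTP over parental cells (limma adjusted p 4.68e-15; 0.46 under RLE scaling).

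**Figure D4:**
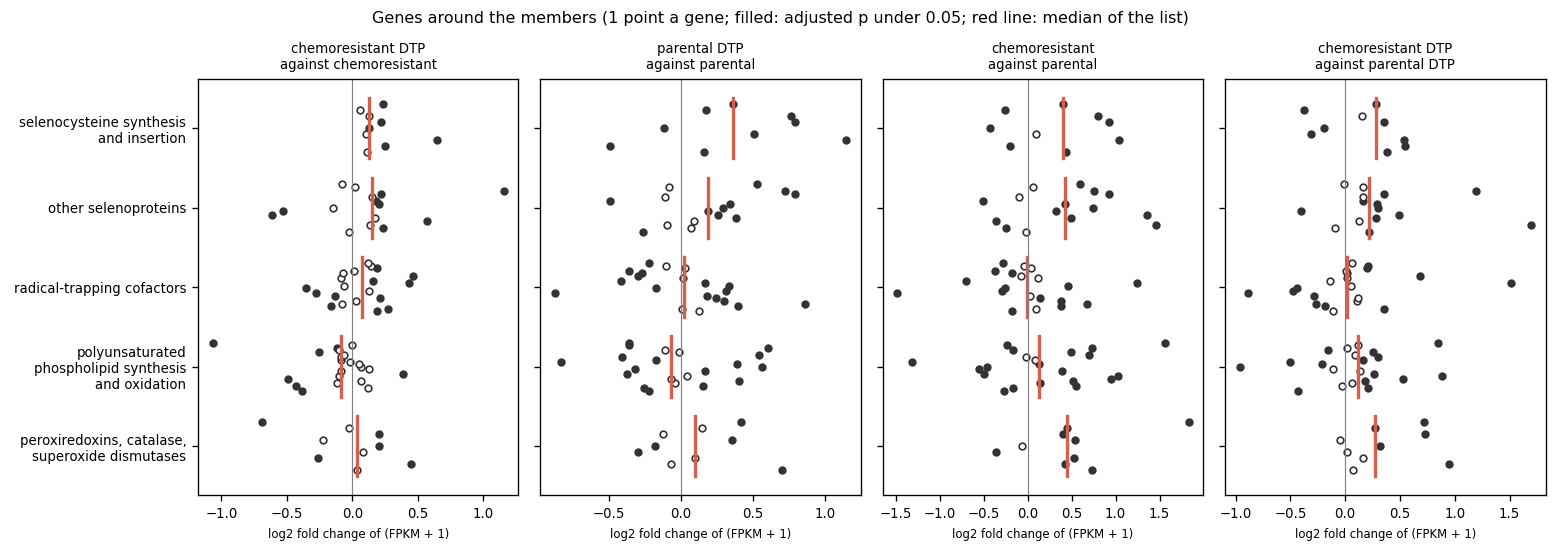
Log2 fold changes of (FPKM + 1) of single genes (1 point a gene, filled where the adjusted p is under 0.05) in 5 lists around the 8 genes, with a red line for the median of the list, in the 4 comparisons. The medians of the selenocysteine list are 0.13 and 0.36 in the persisters of the chemoresistant and the parental line. Those of the polyunsaturated phospholipid list, which also holds SCD and LPCAT1, are -0.09 and -0.07.

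The genes whose pattern was most like that of each member were found by Pearson's r of log2(FPKM + 1) over the 24 libraries among 6905 protein coding genes that averaged 5 FPKM or more in some group. These points share the 4 groups and the GC trend of the libraries, so r is a description. For GPX2 they were PLCD1 (r 0.995), with means of 28.5, 38.9, 4.38 and 2.48 FPKM in chemoresistant DTP, chemoresistant, parental DTP and parental cells, and ARHGEF16 (r 0.994). For ACSL4 they were ZNF655 (r 0.987) and PRTFDC1 (r 0.983), and for GPX3 SLC48A1 (r 0.979), a haem transporter, and CLU (r 0.977), the secreted chaperone clusterin. GPX1 was most like the ribosomal protein genes RPL8 (r 0.970) and RPS21 (r 0.968), and GPX4 was like FKBP8 (r 0.967). For GPX8 they were VPS29 (r 0.953) and CCDC174 (r 0.951), for AIFM2 CDC34 (r 0.925) and PFDN2 (r 0.921), and for LPCAT3 DAG1 (r 0.903) and ELK1 (r 0.899). Of pairs among the 8 genes, GPX1 and GPX4 were the most alike within groups, with r 0.977 over the 24 deviations from the group means, and both had opposite deviations to ACSL4, with r -0.885 and -0.903.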

How the data were processed

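The 24 KYSE450 libraries were grouped and numbered by their sample labels. The authors deposited FPKM values, as the header of their single table of 61251 genes says, and 20150 genes were at 0 in all libraries. The genome build is GRCh38, per the submitters' processing notes. The aligner, counter, annotation release and strandedness are not given in the sources used. Of the gene IDs, 58337 (95.24%) were found in GENCODE release 29. Whole reads could be recovered for all 41101 genes above 0 (tolerance 0.02 reads), and recovered totals were 14947379 to 37989445 per library.

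limma 3.58.1 in R 4.3.3 was fitted with a mean-variance trend to log2(FPKM + 1), with 4 group means over 24 libraries and no batch or replicate term, for the 13729 genes averaging 1 FPKM or more in some group. Two-sided p-values were Benjamini-Hochberg adjusted over all tested genes of a comparison. The procedure was also run on simulated reads. These held neither a GC trend nor a shift of most genes, so that run cannot show how the procedure handles them. Alternatives were pseudocounts of 0.1 and 5, other filters, relative log expression (RLE) and upper-quartile factors, a GC correction (loess, span 0.5), limma-voom on recovered reads, only the libraries compared, a replicate block, and leaving out libraries. RLE factors over the tested genes only were added after seeing the data. No 2 libraries of a group agreed within sampling noise. Parental libraries 5 and 6 differed less from each other than from libraries 1 to 4. Parental DTP libraries 5 and 6 differed more from libraries 1 to 4 than those did among themselves. Chemoresistant DTP library 2 differed more from the rest of its group than these did among themselves. The reason was not tested.

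The members, the 11 gene lists and the rule for named genes were chosen with earlier results of these data known. All 8 members were named, with GPX7 and, per pathway list, up to 3 genes with the largest change past the threshold that averaged 1 FPKM or more in the higher group. EMG1, GPX1P1, GPX5 and GPX6 are outside that rule and were named for sharing reads with a member or belonging to its family. For each member, the 2 genes of most similar pattern were also named, of which 1 is not reported here. Promoter windows are from RefSeq.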

Additional observations from a re-analysis of the deposited data

Results flagged for a closer look

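In 3 genes, chemoresistant DTP library 2 stood far from the other 5 of its group: GPX1 at 397 FPKM (nearest 266), GPX4 at 193 FPKM (nearest 135) and LPCAT3 at 4.04 FPKM (nearest 6.04). AIFM2 in parental DTP library 6, at 10.1 FPKM, stood apart from the next library at 8.04 FPKM. Chance marks about 1 in 20 groups in this way, and the 3 genes of 1 library are not independent of each other. Without parental DTP library 6 the AIFM2 difference between the lines passed (0.29, limma adjusted p 0.00530).

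The persister change differed between the lines by the interaction test for GPX2 (-0.71), ACSL4 (-0.57), GPX8 (-0.41) and GPX3 (-0.23), each as the chemoresistant minus the parental change on the log2 scale, of which the last 2 did not pass under relative log expression scaling.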

How the results depend on the processing

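Of 27 calls of the 8 genes, 19 kept direction and call under all alternatives that gave a value for them. None of the 40 member values that changed sign was called in its changed direction, and the causes were not tested. Between parental DTP and parental cells, GPX4 and AIFM2 changed sign under relative log expression (RLE) scaling (-0.20 and -0.12), RLE over the tested genes (-0.12 and -0.056) and limma-voom (-0.20 and -0.14), and GPX4 under upper-quartile scaling (-0.0018) and GC correction (-0.0082). Between chemoresistant and parental cells, AIFM2 and LPCAT3 did so under RLE (-0.13 and -0.090), RLE over the tested genes (-0.043 and -0.0016), limma-voom (-0.14 and -0.10) and GC correction (-0.11 and -0.047). The GPX4 and LPCAT3 differences between the lines became 0.16 and 0.11 under RLE, 0.047 and 0.013 under RLE over the tested genes, 0.16 and 0.12 under limma-voom, and 0.037 and 0.020 under GC correction; that of GPX7 became 0.13 under limma-voom. Between chemoresistant DTP and parental DTP cells, LPCAT3 became 0.022 (RLE), 0.011 (RLE over the tested genes) and 0.028 (limma-voom), and GPX8 -0.044 without parental DTP libraries 5 and 6. Under GC correction, GPX1, GPX4 and ACSL4 became 0.045, 0.029 and -0.018 between chemoresistant DTP and chemoresistant cells.

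When single libraries were left out, the GPX1 difference between the lines ran from -0.10 to 0.068, and between chemoresistant DTP and parental DTP cells GPX8 ran from -0.016 to 0.12 and LPCAT3 from -0.036 to 0.074. LPCAT3 between chemoresistant and parental cells was called in 8 of 23 alternatives. Called members between chemoresistant and parental cells numbered 4 in place of 7 under RLE and limma-voom, and 2 in place of 4 for the difference under limma-voom. With no filter, 16484 genes passed between chemoresistant and parental cells, in place of 10645. With a mean of at least 5 FPKM, 3932 passed between chemoresistant DTP and chemoresistant cells, 5012 between parental DTP and parental cells, 6020 between chemoresistant and parental cells, 4895 between chemoresistant DTP and parental DTP cells and 4877 for the difference, as fewer genes were tested.

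Deviations of same-numbered libraries had r of -0.385 to 0.403 over 36 pairs. Pairs with different numbers were not compared, so whether same-numbered libraries share a batch was not tested. With the replicate block, 6629, 8965, 10674, 8552 and 8819 genes passed in that order of comparisons, and called members numbered 5, 5, 7, 6 and 4. GC correction with the block was not run, and fitting only the libraries compared gives no value for the difference.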
